A study of Homo sapiens with 6 samples.

Results

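Oxidative phosphorylation genes encode the respiratory chain and the ATP synthase of the mitochondrial inner membrane. They were taken by symbol from the deposited tables as the protein-coding subunit genes of complexes I to V with at least 1 TPM (reads per gene length, scaled to the same total in all libraries) in at least 3 of 6 libraries. This gave 94 of the 45372 genes listed, and 13680 genes passed the same filter. Of the 94, 13 lie in the mitochondrial genome, 79 are nuclear encoded subunits, and 2 are readthrough loci that join a subunit gene to its neighbour. The 79 comprise 37 of complex I, 4 of complex II, 8 of complex III, 13 of complex IV and 17 of complex V. NDUFA4, named for complex I, was counted with complex IV, where its protein is known to sit. The prefixes also took 8 protein-coding genes that fell below the filter, and 6 non-coding entries that were left out.

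The cells were HUVECs, primary endothelial cells of the human umbilical vein from a commercial source, wild type by label. In the first group 3 libraries came from cells transfected with 50 nM of a miR-409-3p mimic. In the second group 3 libraries came from cells transfected with 50 nM of a non-specific control RNA. Both groups received Lipofectamine 2000 and were collected at 48 h, the titles of all 6 samples call the cells non-treated, and the design text pools 4 technical replicates per RNA sample. The labels call the 3 libraries of a group biological replicates but do not say how they were made, so SDs and p-values measure the spread between these samples, which may be technical.

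Electrons from NADH enter the chain at complex I and those from succinate at complex II, pass through complex III and cytochrome c, and reach oxygen at complex IV. Complexes I, III and IV move protons across the inner membrane, and complex V uses the return flow to make ATP. Subunits come from both genomes: the mitochondrial messages are cut from long precursors copied from each strand, whereas nuclear messages are made singly and their proteins imported. Endothelial cells are known to draw much of their ATP from glycolysis while keeping a working respiratory chain.

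Between 29.8 and 35.8 M reads were assigned in each library by estimate. This was inferred from low values being whole multiples of 1 read, which held within 0.02 reads for 79.2% of 22129 values. BTG2, the antiproliferative gene in the series title, had 53.6, 55.6 and 45.7 TPM in mimic libraries, against 81.0, 78.9 and 80.0 TPM in control libraries (log2 fold change -0.63, limma adjusted p = 0.0143). Its adjusted p was above 0.05 in 7 of 17 other settings. All 10 endothelial markers were above the filter, with summed TPM of 5496 to 5542 in mimic and 5121 to 5346 in control libraries. Markers of other cells were also listed. Of the smooth muscle and pericyte markers 2 of 6 passed the filter (RGS5, ACTA2), with summed TPM of 508 to 549 in mimic and 499 to 522 in control libraries. Of the epithelial markers 3 of 5 passed (KRT18, KRT8, EPCAM), with 249 to 310 TPM in mimic and 290.2 to 299.6 TPM in control libraries. Of the fibroblast markers 2 of 5 passed, with 10.4 to 11.3 TPM in mimic and 9.27 to 11.8 TPM in control libraries, and of the leukocyte markers 1 of 5 (CD68), with 16.3 to 19.1 and 16.5 to 19.7 TPM. Of the red cell and platelet markers 0 of 6 passed, with 0.20 to 0.56 TPM in mimic and 0 in control libraries. PTPRC and CD3E (leukocytes), KRT5 (epithelium) and HBB (red cells) were at 0 in all 6 libraries. The part of other cells in the results was not tested. TPM is a share of each library, so in these bulk samples fewer cells of a type and less RNA per cell cannot be told apart.

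The sequence of the transfected microRNA and the places in subunit messages that could pair with it are shown because the seed match is the direct link between the mimic and these genes. The mature miR-409-3p sequence is that of RefSeq (GRCh38.p14, chr14:101065346-101065367, plus strand), with the seed, bases 2 to 8, in capitals. The sites are from GENCODE release 29 (GRCh38) in the longest annotated 3′ UTR of each gene, 22 bases each, with the bases that match the seed, or the seed and the A beside it, in capitals. Whether these cells make messages with those 3′ UTRs was not tested. NDUFB5 is at chr3:179625073-179625094 (plus), ATP5MC3 at chr2:175176441-175176462 (minus), NDUFA5 at chr7:123540569-123540590 (minus) and NDUFB2 at chr7:140722064-140722085 (plus).
hsa-miR-409-3p: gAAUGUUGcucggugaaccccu
NDUFB5: ccactgcaccCAACATTAtttt
ATP5MC3: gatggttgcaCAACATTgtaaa
NDUFA5: tgatttataaCAACATTttcag
NDUFB2: caatttctgtCAACATTtctgt

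With NDUFB9, a further gene with the seed match alone, 5 of the 79 nuclear encoded subunits (6.33%) held the full seed match. Among all tested protein-coding genes the share was 13.3% of 11855. The 3′ UTRs of the subunits were shorter, with a median of 449 nt against 1383 nt. NDUFB5, an accessory complex I subunit with the longest match, had 33.2, 38.2 and 33.2 TPM in mimic libraries and 33.9, 35.9 and 34.8 TPM in control libraries. ATP5MC3, one of 3 genes for the c subunit of the ATP synthase rotor, had 130, 141 and 115 TPM in mimic libraries and 130, 122 and 132 TPM in control libraries. The groups overlapped for both genes. The log2 fold changes of the 5 genes were -0.0021 for NDUFB5, 0.0050 for ATP5MC3, -0.028 for NDUFA5, -0.065 for NDUFB2 and 0.019 for NDUFB9.

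No subunit gene of either genome passed the test between mimic and control. The count past an adjusted p of 0.05 (limma over all 13680 genes, Benjamini-Hochberg) was 0 of 94, against a background of 59 genes, 0.431% of those tested. At an unadjusted p below 0.05 the count was 1 of 94, NDUFV3, against 10.7% of all tested genes. Values that did not overlap between the groups were found for 3 of 94 genes, NDUFV3, UQCRFS1 and ATP5PO, against 15.7% of all tested genes. The 95% intervals of all 92 subunits, readthroughs left out, lay within a 1.5-fold change in either direction, 80 lay within 1.25-fold and 68 within 1.2-fold. The widest reached -0.46 for COX7A1 and 0.46 for MT-ND3 on the log2 scale.

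**Figure D1:**
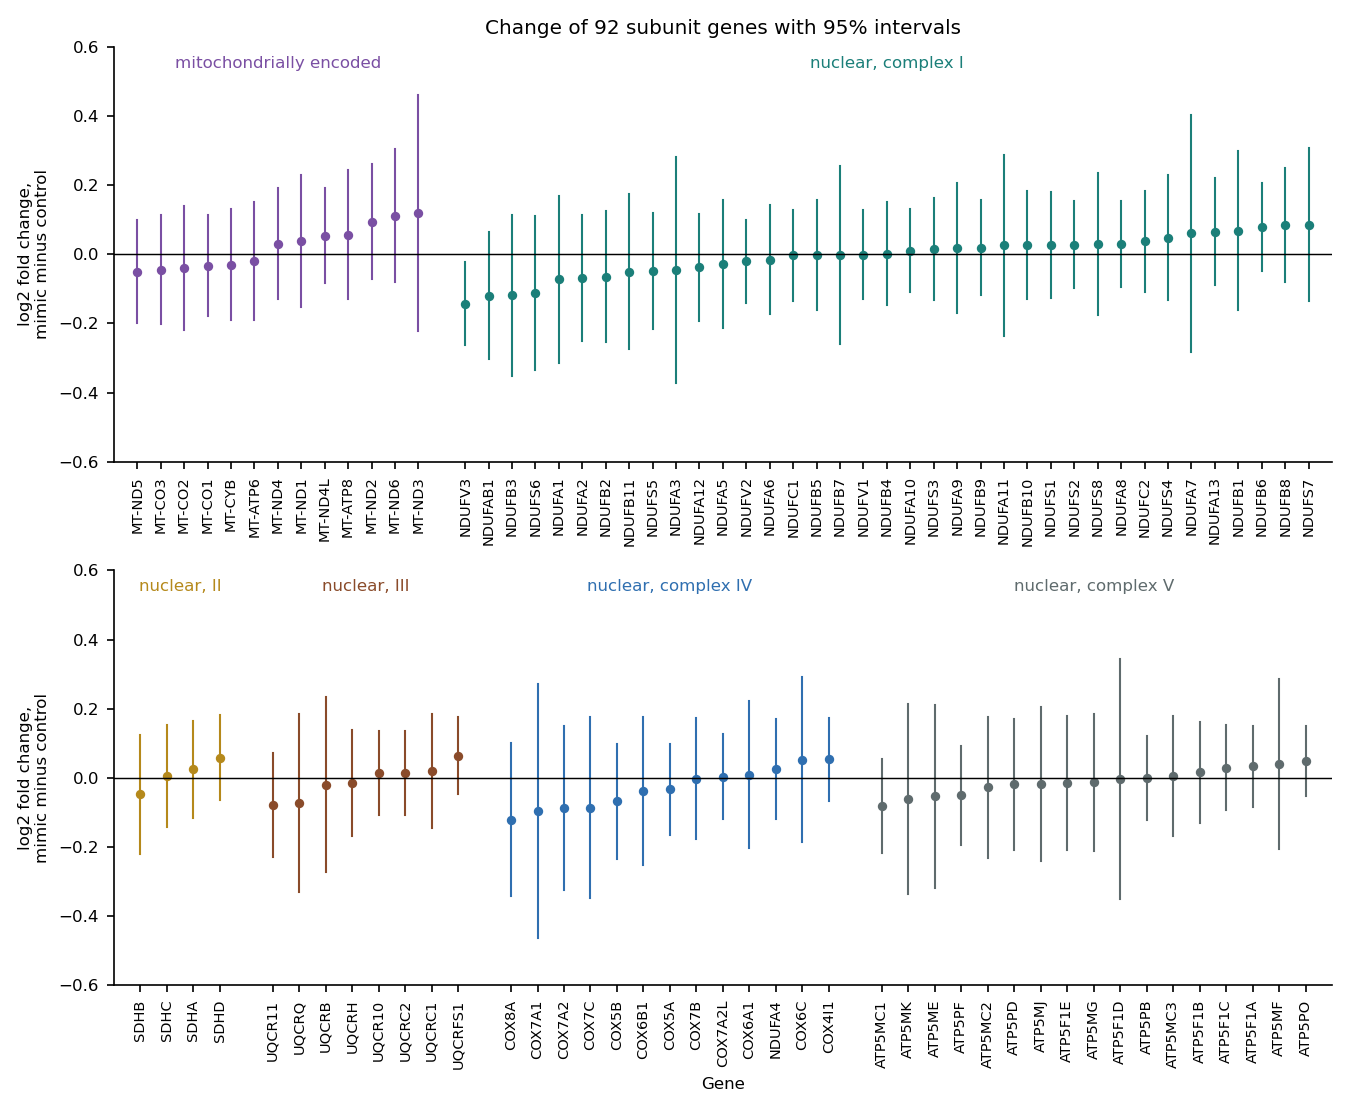
Log2 fold change (mimic over control, from log2(TPM + 1)) of the 92 subunit genes ordered within each complex. Points are limma estimates and lines their 95% intervals (n = 3 libraries per group). The interval of NDUFV3 alone leaves out 0, and the intervals together reach from -0.46 to 0.46.

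The mitochondrially encoded messages, MT-ND6 aside, had higher mean levels per length than any nuclear encoded subunit. Their 13 values summed to 89903, 87660 and 86728 TPM in mimic libraries, and to 92769, 80423 and 88225 TPM in control libraries. The mimic sums lay inside the range of the control sums. The mean was 88097 ± 1632 TPM in mimic and 87139 ± 6245 TPM in control libraries (SD, n = 3 each). Because these genes are short, they made up 1.49% to 1.79% of the estimated reads of a library but 8.04% to 9.28% of its TPM. The median log2 fold change of the 13 genes was 0.031, with 7 above 0 and 6 below, beside a median of -0.017 over all tested genes.

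**Figure D2:**
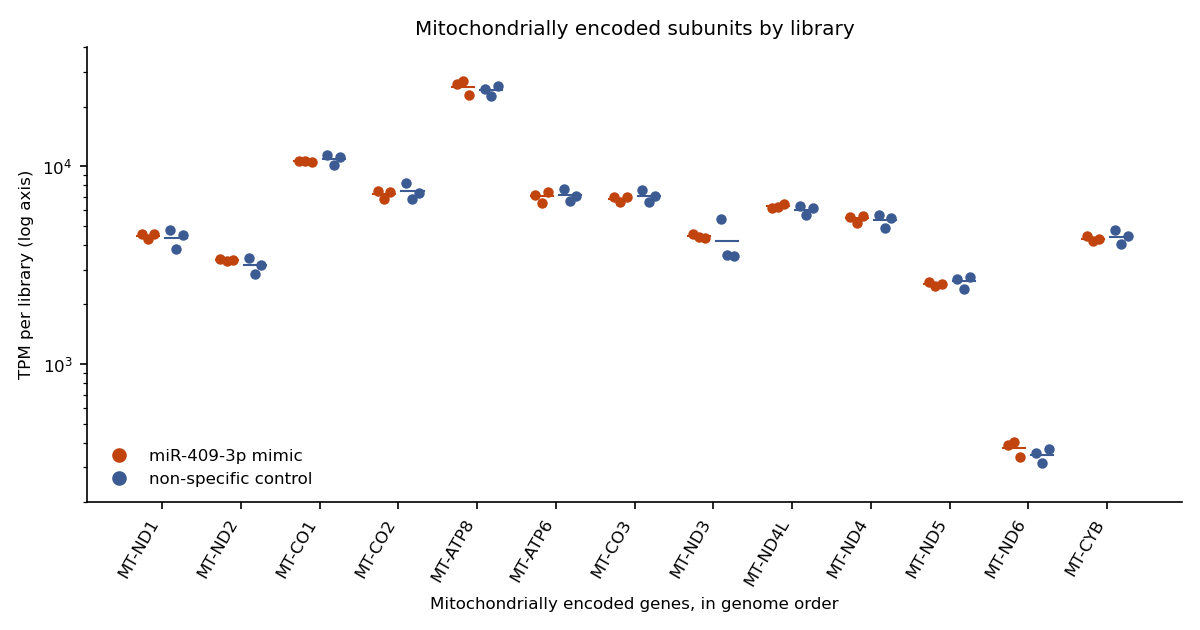
TPM of the 13 mitochondrially encoded genes in each library on a log axis, in genome order, with mimic libraries left of control libraries and a bar at each group's mean. MT-ATP8 lies highest and MT-ND6 lowest in both groups, and the groups overlap for every gene.

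The 7 mitochondrial complex I genes encode the membrane arm that pumps protons. MT-ND3 had the largest estimate of the 13, with 4557, 4401 and 4344 TPM in mimic libraries and 5432, 3546 and 3528 TPM in control libraries (log2 fold change 0.12, SE 0.15, adjusted p = 0.902). Control 1 was the highest of the 6 values and the other control libraries were the lowest, so the mimic values lay between them. MT-ND2 had 3384, 3311 and 3359 TPM in mimic libraries and 3445, 2846 and 3153 TPM in control libraries (0.094, adjusted p = 0.770). MT-ND1, at the junction of the membrane and matrix arms, had 4528, 4265 and 4544 TPM in mimic and 4756, 3813 and 4462 TPM in control libraries. For these genes control 2 was low and control 1 high, and the mimic libraries fell between. MT-ND4 and MT-ND4L, which share 1 message, had log2 fold changes of 0.031 and 0.053, and MT-ND5 had -0.050. In all, 6 of the 7 estimates were above 0 and none passed the test. Without control 2, 4 of the 7 were above 0, and their median was 0.011, beside 0.053 with all libraries.

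MT-ND6 is the single protein gene read from the light strand. It had 387, 405 and 337 TPM in mimic libraries and 353, 317 and 373 TPM in control libraries (log2 fold change 0.11, SE 0.084, adjusted p = 0.756). Its mean of 362 TPM over the 6 libraries was the lowest of the 13, next to 2576 TPM for its heavy-strand neighbour MT-ND5. The libraries were enriched for mRNA, and whether this took up both messages alike was not tested. The ratio of MT-ND6 to MT-ND5 was 0.149, 0.164 and 0.134 in mimic libraries and 0.131, 0.132 and 0.135 in control libraries, so the groups overlapped. The use of strand in counting is not given, and without it reads of MT-ND6 and of the precursor copied opposite to it cannot be told apart.

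MT-CYB, the cytochrome b of complex III, had 4415, 4199 and 4295 TPM in mimic libraries and 4770, 4025 and 4418 TPM in control libraries (log2 fold change -0.030). MT-CO1, the catalytic subunit of complex IV, had 10666, 10558 and 10539 TPM in mimic libraries and 11333, 10087 and 11105 TPM in control libraries (-0.032, SE 0.064, adjusted p = 0.950). The mimic values of MT-CO1 were closer together than the control values and lay inside their range. MT-CO2, which takes electrons from cytochrome c, and MT-CO3 had log2 fold changes of -0.040 and -0.044. All 3 mitochondrial complex IV estimates were below 0, none passed the test, and without control 1 all 3 were above 0. Under quantile scaling 1 of the 3 was above 0.

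MT-ATP8 and MT-ATP6, the 2 mitochondrial subunits of the ATP synthase, are read from 1 message in overlapping frames. The 46 shared bases at chrM:8527-8572 (GENCODE 29, GRCh38, plus strand) run from the start codon of MT-ATP6 to the stop codon of MT-ATP8, both in capitals. They are shown because reads from them belong to either gene.
MT-ATP8 and MT-ATP6 overlap: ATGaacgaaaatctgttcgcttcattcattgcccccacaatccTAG
The shared stretch is 22.2% of MT-ATP8 and 6.75% of MT-ATP6. MT-ATP8 had 26004, 26792 and 22961 TPM in mimic libraries and 24611, 22737 and 25391 TPM in control libraries. MT-ATP6, part of the proton channel, had 7175, 6533 and 7392 TPM in mimic libraries and 7678, 6670 and 7040 TPM in control libraries. The TPM ratio of MT-ATP8 to MT-ATP6 was therefore 3.62, 4.10 and 3.11 in mimic libraries and 3.21, 3.41 and 3.61 in control libraries, on 1 shared message. How the counting placed reads of the overlap is not given, and the levels of the pair are uncertain for that reason. MT-ND4L and MT-ND4, which overlap by 7 bases, had a ratio of 1.11, 1.20 and 1.14 in mimic libraries and 1.11, 1.16 and 1.13 in control libraries.

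The summed level of the nuclear encoded subunits overlapped between the groups as well. It was 11706, 11547 and 11459 TPM in mimic libraries and 12553, 11371 and 11191 TPM in control libraries. The mimic sums lay within the range of the control sums, and control 1 was the highest library. The median log2 fold change of the 79 genes was -0.0015, with 37 above 0 and 42 below. The mitochondrial sum was 7.68, 7.59 and 7.57 times the nuclear sum in mimic libraries and 7.39, 7.07 and 7.88 times in control libraries. The ratio averaged 7.61 ± 0.059 in mimic and 7.45 ± 0.41 in control libraries (SD, n = 3 each), a difference smaller than the control spread. Its size depends on the gene lengths used in TPM. In estimated reads the mitochondrial members held 1.49% to 1.79% of a library and the nuclear members 0.66% to 0.74%.

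**Figure D3:**
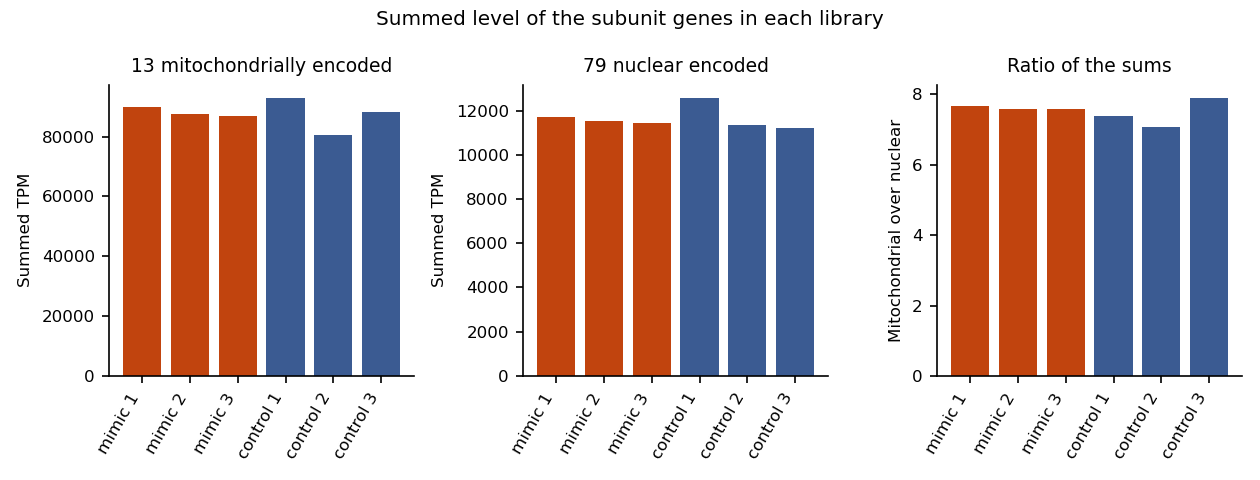
Summed TPM of the 13 mitochondrially encoded and the 79 nuclear encoded subunit genes, and the ratio of the sums, as 1 bar per library, mimic on the left. In all panels the 3 mimic bars lie within the range of the 3 control bars.

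Levels of the nuclear encoded subunits ranged from 15.9 TPM for NDUFS7 to 1204 TPM for NDUFS5 (means of 6 libraries), with a median of 104 TPM. Complex V ran from 48.2 TPM for ATP5F1D to 769 TPM for ATP5F1B, and complex IV from 37.2 TPM for COX7A1 to 286 TPM for COX7C. Median levels were 77.0 TPM in complex I, 91.0 TPM in complex II, 107 TPM in complex III, 159 TPM in complex IV and 138 TPM in complex V. TPM here divides reads by the length of all annotated exons of a gene, since most low values became whole reads when multiplied by it. That length was 507 bases for COX8A and 14160 for SDHC. Levels of different genes, and medians by complex, therefore depend on the annotation as well as on reads. Many of these genes also have processed copies elsewhere in the genome, and how reads of copies were counted is not given.

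**Figure D4:**
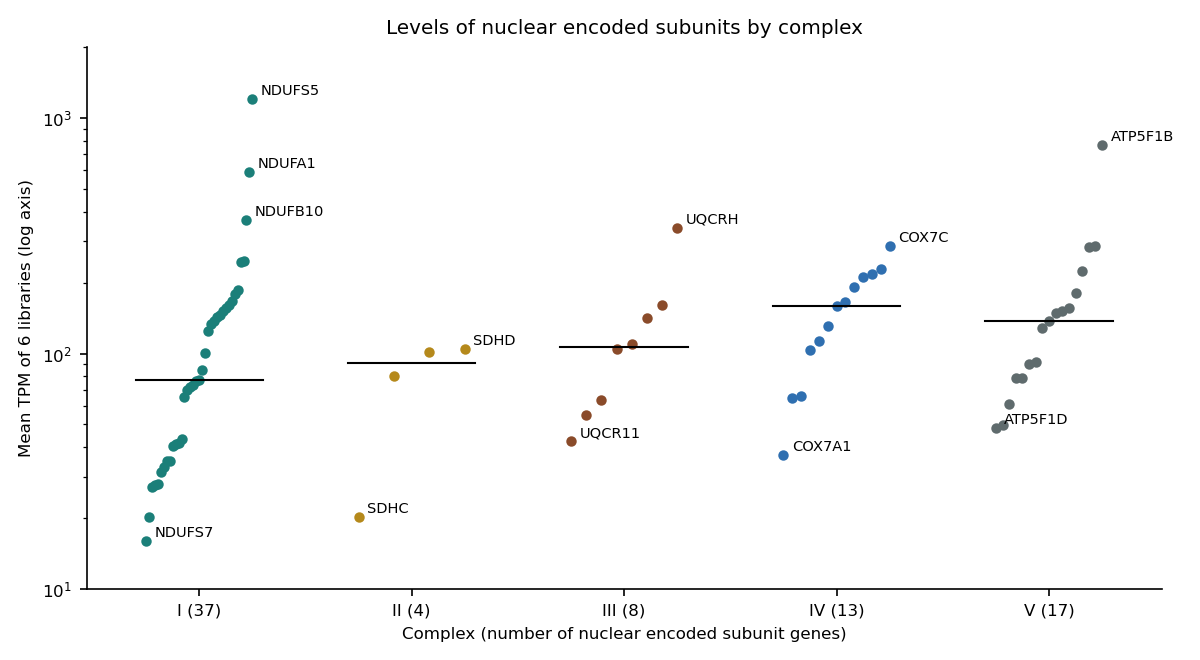
Mean TPM over 6 libraries of each nuclear encoded subunit gene by complex, on a log axis, with a line at each complex's median and the extremes named. NDUFS5 at 1204 TPM and ATP5F1B at 769 TPM stand highest, and NDUFS7 at 15.9 TPM lowest. Levels of different genes depend on the annotated exon length used in TPM.

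In complex I, NDUFV3 was the subunit with the lowest estimate of all 79. It is an accessory subunit of the matrix module that takes up NADH. It had 26.3, 26.7 and 26.8 TPM in mimic libraries, against 29.1, 29.7 and 29.5 TPM in control libraries, so every mimic value lay below every control value. The log2 fold change was -0.14 (SE 0.053, 95% interval -0.26 to -0.021, limma adjusted p = 0.371). NDUFV1, which holds the flavin of the same module, had 69.4, 71.5 and 75.2 TPM in mimic and 71.6, 75.2 and 69.5 TPM in control libraries (log2 fold change -0.00073). NDUFS1, the large iron-sulfur subunit beside it, had a log2 fold change of 0.027, and the groups overlapped for both.

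NDUFS7 carries the last iron-sulfur cluster before the quinone. It had 16.3, 14.4 and 18.7 TPM in mimic libraries and 16.3, 14.6 and 15.3 TPM in control libraries (log2 fold change 0.086, adjusted p = 0.885), the highest estimate of the 79. Mimic 2 was the lowest and mimic 3 the highest of the 6 values, on 897 to 1066 estimated reads per library. Other complex I estimates at the upper end were 0.086 for NDUFB8, 0.079 for NDUFB6, 0.069 for NDUFB1 and 0.066 for NDUFA13, all accessory subunits of the membrane arm. At the lower end stood NDUFAB1, the mitochondrial acyl carrier protein, with 72.0, 70.5 and 77.6 TPM in mimic libraries and 90.1, 75.9 and 74.0 TPM in control libraries (-0.12, adjusted p = 0.717). NDUFB3 and NDUFS6 had -0.12 and -0.11. NDUFS5, an accessory subunit and the nuclear member highest in TPM, had 1203, 1222 and 1122 TPM in mimic libraries and 1360, 1153 and 1167 TPM in control libraries (-0.049). For NDUFAB1, NDUFS6 and NDUFS5 control 1 was the highest library. Of the 37 complex I genes 19 were above 0 and 18 below.

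Complex II, succinate dehydrogenase, has no mitochondrially encoded subunit. SDHA, its flavoprotein, had 79.3, 78.0 and 85.5 TPM in mimic libraries and 76.3, 84.4 and 78.0 TPM in control libraries (log2 fold change 0.025). SDHB, its iron-sulfur subunit, had 94.2, 93.7 and 113 TPM in mimic libraries and 106, 101 and 103 TPM in control libraries (-0.047). SDHC and SDHD, the membrane anchors, had 0.0038 and 0.058. The groups overlapped for all 4 genes. SDHC averaged 20.2 TPM beside 104 TPM for SDHD, over annotated exon lengths of 14160 and 2838 bases. The estimated reads of the 2 genes over all libraries were 14184 and 14735.

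In complex III, UQCRFS1, the Rieske iron-sulfur protein, had 64.2, 64.0 and 65.7 TPM in mimic libraries, against 60.8, 61.8 and 62.7 TPM in control libraries. Every mimic value was above every control value, but the log2 fold change of 0.064 (SE 0.049, adjusted p = 0.762) was not past the test. UQCRC1, a core subunit, had 0.019, and UQCRH, the hinge protein and the most abundant of the 8 at 343 TPM, had -0.016. UQCRHL, a near copy of UQCRH, was below the filter with 0 to 0.46 TPM, and reads shared by the pair could be placed with either. Cytochrome c (CYCS) and the cytochrome c1 subunit CYC1, which the prefixes do not take, had log2 fold changes of -0.047 and 0.016.

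Complex IV has tissue isoforms, and the same forms were present in both groups. COX4I1, the widespread form of subunit 4, had 220, 214 and 228 TPM in mimic libraries and 220, 214 and 204 TPM in control libraries, whereas its oxygen-responsive partner COX4I2 was listed at 0 in all 6. COX6A1, the widespread form, had 234, 196 and 257 TPM in mimic libraries and 236, 229 and 214 TPM in control libraries, and the muscle form COX6A2 was listed at 0 in all 6. The form of subunit 7A known from heart and skeletal muscle, COX7A1, was present in these cells. It had 45.3, 28.6 and 34.4 TPM in mimic libraries and 45.1, 34.8 and 34.9 TPM in control libraries (log2 fold change -0.096, SE 0.16).

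In TPM, COX7A1 was 0.394, 0.297 and 0.292 of COX7A2, the widespread form, in mimic libraries and 0.338, 0.309 and 0.333 in control libraries. COX7A2L, known for joining complexes III and IV, averaged 64.7 TPM with a log2 fold change of 0.0023. NDUFA4 averaged 104 TPM, and its hypoxia-inducible relative NDUFA4L2 was below the filter at 0.040 to 0.24 TPM. COX8A had the lowest estimate of the complex, with 184, 163 and 204 TPM in mimic libraries and 214, 208 and 177 TPM in control libraries (-0.12, adjusted p = 0.787). COX7C, the most abundant at 286 TPM, had -0.087, and all these groups overlapped. COX6B2, COX7B2 and COX8C, known mostly from testis or other tissues, were listed at 0 throughout.

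In complex V, ATP5F1B, the catalytic beta subunit, was the nuclear member second highest in TPM. It had 743, 752 and 825 TPM in mimic libraries and 732, 816 and 748 TPM in control libraries (log2 fold change 0.015, 95% interval -0.13 to 0.16). Its partner ATP5F1A, the alpha subunit, had 149, 156 and 144 TPM in mimic and 143, 147 and 149 TPM in control libraries (0.033). The groups overlapped for both, and ATP5F1B stood above ATP5F1A in TPM in every library. The annotated exon lengths behind TPM were 2322 bases for ATP5F1B and 10908 for ATP5F1A. The estimated reads over all libraries were closer, at 88600 for ATP5F1B and 80334 for ATP5F1A. ATP5PO, which ties the catalytic head to the stalk, had 154, 154 and 155 TPM in mimic libraries, against 149, 149 and 150 TPM in control libraries. Its groups did not overlap, but the log2 fold change of 0.047 (SE 0.044, adjusted p = 0.834) did not pass. It was the steadiest member, with its highest value 1.04 times its lowest.

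The 3 genes ATP5MC1, ATP5MC2 and ATP5MC3 encode the same mature c subunit behind different import signals, and their levels averaged 60.8, 156 and 128 TPM. Their estimated reads over all libraries were 7901, 30851 and 43379, so the order of the last 2 depends on the exon length used. The log2 fold changes of the 3 genes were -0.081, -0.028 and 0.0050, with overlapping groups, and that of ATP5MC1 was the lowest in complex V. Of the 17 complex V genes 6 were above 0 and 11 below, with a median of -0.013. The 13 complex IV genes had 5 above 0 and 8 below, with a median of -0.034, and the 8 of complex III had 4 on each side. Summed by complex, complex I genes of the nucleus had 5459, 5336 and 5211 TPM in mimic libraries and 5916, 5185 and 5154 TPM in control libraries. Complex V genes had 2954, 2981 and 2935 TPM in mimic libraries and 3100, 2926 and 2874 TPM in control libraries. In both sums control 1 was highest and the mimic values lay inside the control range.

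The readthrough loci were low. NDUFC2-KCTD14 had 2.98, 7.63 and 6.09 TPM in mimic libraries and 2.48, 2.67 and 5.45 TPM in control libraries, on 17 to 56 estimated reads (log2 fold change 0.52, adjusted p = 0.660). ATP5MF-PTCD1 had 5.42, 8.50 and 9.45 TPM in mimic libraries and 8.44, 11.3 and 6.99 TPM in control libraries (-0.18). Both groups overlapped, and reads of these loci cannot be told from those of the genes they join. NDUFC2-KCTD14 was the member nearest the filter from above, and UQCRHL at a mean of 0.18 TPM the protein-coding gene nearest from below.

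Libraries of the same group differed from each other along properties of the genes. Control 1 was the highest of the 6 libraries for 40 of the 79 nuclear members (50.6%), against 7.27% of all tested genes, and for 9 of the 13 mitochondrial members. Control 2 was the lowest library for 9 of the 13. A wide gap, in members picked after their values were seen, was found for NDUFA3 and ATP5ME, accessory subunits of complexes I and V. NDUFA3 had 40.7, 27.4 and 27.9 TPM in control libraries 1 to 3, and ATP5ME had 225, 162 and 166 TPM. Among the 79 genes the deviation of control 1 from the control mean had a Pearson r of -0.71 with log2 coding length, beside -0.22 over 11966 tested genes. Its median was 0.15 for the 27 genes with coding lengths of 153 to 324 bases and -0.023 for the 27 with 507 to 2181 bases.

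Between mimic libraries 3 and 2 the difference of the 79 genes followed the GC content of the coding sequence, with r = 0.70. The median difference was 0.19 on the log2 scale for the 27 genes of highest GC (54.8% to 68.3%) and -0.14 for the 27 of lowest GC (37.9% to 49.0%). A like relation was seen over 11966 tested genes, the members among them. There the deviation of mimic 3 from the mimic mean had r = 0.51 with coding GC, beside 0.68 over the 79 genes. The change between mimic and control had r = 0.0013 with coding GC over the 79 genes and r = 0.41 with log2 coding length. These values share libraries and are descriptions across genes, which are not independent replicates. The part of the library differences in the change between the groups was not tested beyond a correction for coding GC and length, under which 0 members passed.

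**Figure D5:**
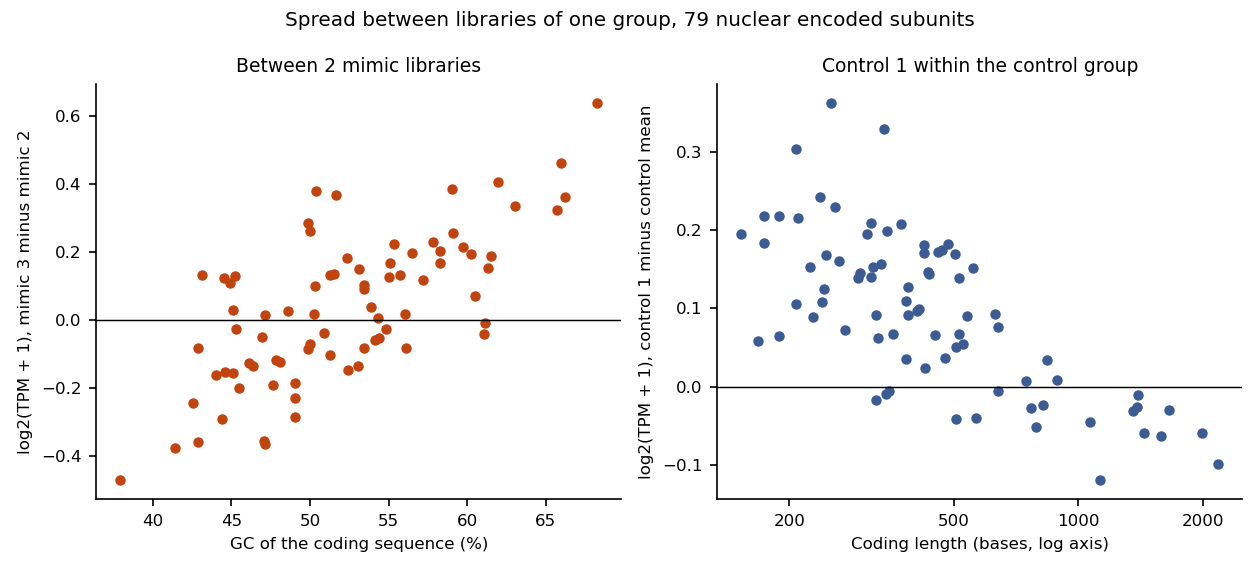
Left, the log2 difference of mimic 3 minus mimic 2 against coding GC. Right, the log2 deviation of control 1 from the control mean against coding length on a log axis. Each point is 1 of the 79 nuclear encoded subunit genes (r = 0.70 on the left, -0.71 on the right, the length taken as log2).

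The promoters of the nuclear subunits were searched for the motifs of known regulators. NRF1 and GABP are transcription factors known to act on many nuclear respiratory genes. In the window of 250 bases before to 50 after the start (RefSeq, GRCh38.p14), 65 of the 79 genes had a sequence. The NRF1 core GCGCATG, on either strand, was present in 14 of 65 (21.5%), against 7.77% of 10278 tested genes. The GABP/ETS motif CCGGAAG, on either strand, was present in 20 of 65 (30.8%), against 20.1%. The median GC of these promoters was 61.3%, against 65.3% for tested genes. The promoter of SDHD, at chr11:112086623-112086922 (plus strand), is shown as a member with both motifs, in capitals. The NRF1 core occurs in it on both strands, overlapping, so that its matches form 1 stretch of capitals. A match is letters in a window and not a bound site.
SDHD promoter: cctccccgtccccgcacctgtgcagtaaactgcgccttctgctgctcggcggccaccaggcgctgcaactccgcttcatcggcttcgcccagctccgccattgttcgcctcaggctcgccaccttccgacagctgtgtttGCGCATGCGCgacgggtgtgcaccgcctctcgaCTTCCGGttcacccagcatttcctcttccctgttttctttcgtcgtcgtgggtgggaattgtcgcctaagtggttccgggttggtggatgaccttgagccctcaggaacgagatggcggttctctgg

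The other genes of the pathway also gave no call: of 225 listed genes found by symbol 204 were tested, and 0 passed. An unadjusted p below 0.05 was seen for 15 (7.35%), 1 higher and 14 lower. Over all tested genes the share was 10.7%, 417 higher and 1045 lower. Of 22 assembly factors tested for complex IV, 16 were below 0, against 56.6% of all tested genes. The smallest p among the 22 belonged to COA7 (log2 fold change -0.21, limma adjusted p = 0.172). COA7 had 30.9, 31.1 and 31.7 TPM in mimic libraries, against 35.1, 36.4 and 37.8 TPM in control libraries. Of 16 for complex I, 9 were below 0, among them TMEM186 (-0.29, adjusted p = 0.246). The 78 genes of the mitochondrial ribosome had a median of -0.016, beside -0.017 over all tested genes. Of these 78, 50 were below 0, and 38 were with median-of-ratios scaling. The 13 citric acid cycle genes had a median of 0.017.

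Among the 15 genes that copy and transcribe mitochondrial DNA none passed the test. Of these, 13 were below 0 and 5 had an unadjusted p below 0.05, all lower, and the median was -0.077. Over all tested genes 56.6% were below 0, and of the 1462 at an unadjusted p below 0.05 (10.7%) 1045 were lower. MTERF3, known as a repressor of mitochondrial transcription, had 35.1, 35.3 and 35.3 TPM in mimic libraries, against 45.5, 42.0 and 47.3 TPM in control libraries (log2 fold change -0.34, SE 0.060, adjusted p = 0.0605). POLG2, the accessory subunit of the mitochondrial DNA polymerase, had 7.11, 6.05 and 7.47 TPM in mimic libraries, against 8.96, 9.48 and 9.97 TPM in control libraries (-0.41, adjusted p = 0.117). The groups did not overlap for either gene. TFAM, which packs mitochondrial DNA and starts its transcription, had -0.053, and POLRMT, the polymerase, had -0.11. MTERF3 had an adjusted p of 0.0327 among genes with at least 5 TPM, 0.0397 with a robust prior and 0.0322 among protein-coding genes, and so passed under these settings. It did not pass under the other 14, with an adjusted p up to 0.235 and of 0.0786 with coding GC and length corrected.

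Of 18 listed genes that cut, stabilise and degrade mitochondrial RNA, 17 were found by symbol and tested. All 17 were below 0, with a median of -0.088, beside 56.6% below 0 and a median of -0.017 over all tested genes. At an unadjusted p below 0.05 there was 1 of 17 (5.88%), against 10.7% of all tested genes. They include LRPPRC and SLIRP, which hold mitochondrial messages stable, at -0.035 and -0.13, and FASTKD3 at -0.19 (adjusted p = 0.464). With coding GC and length corrected, 13 of the 17 were below 0 and the median was -0.044, and under quantile scaling 15 were. Of 9 tested regulators of the nuclear subunits, 3 had an unadjusted p below 0.05, all lower, against 10.7% of all tested genes, of which 1045 of 1462 were lower. PPRC1, a coactivator of NRF1, had 25.9, 22.5 and 26.7 TPM in mimic libraries, against 30.8, 33.9 and 33.9 TPM in control libraries (-0.38, adjusted p = 0.0904). NRF1 itself had -0.24 and NFE2L2 -0.20, whereas GABPA had 0.079. The PPRC1 call passed among protein-coding genes (adjusted p = 0.0445) and with the GC and length correction (0.0366), and not in the other 15 settings (up to 0.301). PPARGC1A, the best known coactivator of mitochondrial genes, was below the filter.

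The mitochondrial ribosomal RNAs come from the same heavy-strand precursors as the messages. MT-RNR1, the 12S ribosomal RNA, had 575, 551 and 565 TPM in mimic libraries, against 788, 675 and 732 TPM in control libraries. Every mimic value was below every control value, on 4072 to 6234 estimated reads per library. The log2 fold change was -0.37 (SE 0.063) and the adjusted p 0.0525, just short of the threshold. It passed with genes of at least 5 TPM (adjusted p = 0.0279) and a robust prior (0.0302), and not in the other 13 of 15 settings (up to 0.220). It has no coding sequence, so the GC and length correction left it as it was. MT-RNR2, the 16S ribosomal RNA copied with it, had 5876, 5824 and 5945 TPM in mimic libraries and 6321, 5419 and 5782 TPM in control libraries (0.013). The libraries were enriched for mRNA, so levels of ribosomal RNA depend on how much of it was carried along. The part of this in the values of MT-RNR1 and MT-RNR2 was not tested. MT-TL1, the transfer RNA gene next to MT-RNR2, rested on 1 to 5 estimated reads per library.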

How the data were processed

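RNA-seq tables were read from 6 HUVEC libraries, 3 per group, and the sample titles gave the groups. Each library has 1 table of TPM values for 45372 Ensembl IDs, which the authors deposited, per the file headers. Per the submitters' processing notes the builds are hg38 and GRCh38.p13. The aligner, counter, annotation and strand setting were not given in the sources used here. Symbols were found for 45102 IDs, and GENCODE release 29 held 43348. The members and gene lists were chosen with earlier results of these data known.

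All genes that reached 1 TPM in 3 or more libraries were fitted with limma (version 3.58.1, R version 4.3.3) on log2(TPM + 1) with a trended prior and no term besides group. Adjustment was by Benjamini-Hochberg with a threshold of 0.05. Differences are mimic over control on this scale, so changes of low genes are understated. The fit was tested only on simulated data with noise drawn separately for each gene, without the library differences by GC and length described above. Named were all 13 mitochondrial genes, the 5 highest and 5 lowest nuclear estimates, the most abundant subunit of each complex, the isoforms and core subunits, the genes nearest the filter, BTG2 and the 2 smallest p of each pathway list. Other genes with values were named after these were seen. On the RNA processing list 1 symbol, FASTKD4, was not matched. Coding GC and length are those of the principal transcript in GENCODE. Intervals cover the spread between libraries. Reads carried no molecular identifiers, so estimated reads include PCR copies. Alternatives were the pseudocount, filters, priors, scaling, gene sets, a replicate block, and each library left out. Tables and plots used Python 3.11.15 with pandas 2.3.3, numpy 2.4.6 and scipy 1.17.1, and matplotlib 3.10.9.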

Additional observations from a re-analysis of the deposited data

How the results depend on the processing

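Under 17 other settings, 0 of the 94 members passed the threshold in each. Calls over all genes, 59 in the report, were 9, 17, 13 and 19 without mimic 1, control 1, control 2 and control 3, 14 with a replicate block, 11 with no filter, 20 with an untrended prior, 115 with at least 5 TPM, 119 with a robust prior, 175 among protein-coding genes and 204 with coding GC and length corrected, a setting chosen after seeing the data. The cause was not tested. Leaving out 1 library at a time, the median log2 fold change ran from -0.052 to 0.069 for the mitochondrial and from -0.034 to 0.034 for the nuclear members. The summed TPM, mimic minus control, ran from -2400 to 3773 for the mitochondrial and from -391 to 290 for the nuclear members. Without control 1, 4 of 94 members were higher and 1 lower at an unadjusted p below 0.05. The share of the 13529 genes tested in that setting was not counted, so this count has no background of its own. With all 6 libraries 10.7% of all tested genes were below 0.05. Median-of-ratios scaling put 52 nuclear members above 0 and 27 below, beside 37 and 42, and put the median of all genes at 0.0034, beside -0.017. The values gave no sign that replicate numbers pair the samples, though they cannot exclude it. Same-numbered deviations correlated at 0.031, -0.087 and -0.11, and 1 of 3 mimic libraries was closest to its own number. With the replicate block 0 members passed. BTG2 had an adjusted p of 0.055 to 0.12 in 7 settings. Of 1168 values of single named genes under other settings, 7 lost and 7 gained a call, 3 uncalled ones moved by more than the spread of their replicates, the other 1151 did none of these, and 0 reversed a called value. TPM keeps no read counts, so the depth behind each value is an estimate.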
